A study of Mus musculus with 4 samples.

Results

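A set of 8 genes of mast cells and basophils was followed through single-cell RNA-seq libraries of mouse fracture callus. They were, of 32285 genes in the deposited matrices, Mcpt8, Mcpt4, Cma1, Tpsb2, Cpa3, Ms4a2, Kit and Il4. They were selected on measured values of these same libraries, so that their levels are given as a description with no test. Cells were kept at 1000 or more unique molecular identifiers (UMIs, each standing for one captured RNA molecule) and 500 or more detected genes. A kept cell whose counts of the 8 genes summed to 5 or more was called member-rich, and 431 of 32126 kept cells were.

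The callus cells came from a tibia fracture model in male C57BL/6J wild-type mice of 3 months. Control mice received vehicle, and RA mice received K/BxN serum, an autoantibody-containing serum that transfers inflammatory arthritis. Callus was taken at 4 or 7 days post-fracture (dpf), which gave 4 libraries (control_4d, RA_4d, control_7d, RA_7d), with 10000 cells loaded into each. Each library was 1 pool of callus tissue scraped from the periosteal surface, of 4 calluses by the series' design text and 3 by the study's methods, and no animal can be told apart within it. Every group was therefore 1 library with no replicate. No difference between control and RA could be tested, and the 95% intervals given with the values (exact binomial for shares, exact Poisson for levels, exact conditional for ratios) cover counting error only. Fewer cells of a type and less RNA in each cell cannot be told apart in a level taken over all cells of a library. Kept cells numbered 7202 in control_4d, 5637 in RA_4d, 9581 in control_7d and 9706 in RA_7d, with a median of 14572 to 17019 UMIs a cell and 2.06% to 2.54% mitochondrial UMIs. Between 43 and 61 barcodes a library also occurred in another library, and none of these belonged to a member-rich cell.

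Mast cells are long-lived, tissue-resident cells that depend on the Kit receptor and store proteases, histamine and heparin in granules. Basophils are short-lived granulocytes that leave the marrow, enter inflamed tissue and release Il4. Both carry the high-affinity IgE receptor, and their granules hold different proteases, which is how they are usually separated in mouse tissue.

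The 8 genes fall into proteases, receptors and a cytokine. Mcpt8 (mast cell protease 8) is, in spite of its name, a serine protease of basophil granules. Mcpt4 and Cma1 encode chymases and Tpsb2 a tryptase of connective tissue mast cells, while Cpa3 encodes the carboxypeptidase shared by mast cells and basophils. Ms4a2 is the beta chain of the IgE receptor, Kit is the receptor for stem cell factor, and Il4 is the type 2 cytokine. On GRCm38 (mm10), 3 of the 8 sit in one protease cluster on chromosome 14, all on the minus strand, with Cma1 at chr14:55941451-55944675, Mcpt4 at chr14:56059629-56062313 and Mcpt8 at chr14:56082166-56085273. Only 19.852 kb lie between Mcpt4 and Mcpt8. Cpa3 was at chr3:20215620-20242181, Ms4a2 at chr19:11615523-11623719, Il4 at chr11:53602982-53618669 (all minus strand), Tpsb2 at chr17:25366305-25369098 and Kit at chr5:75574916-75656722 (plus strand). The chromosome 14 neighbours could share reads: 12.2% of the 31-base words of Mcpt4 transcripts also occurred in another gene (10.2% in Cma2) and 10.6% of those of Cma1 in Gm48934, against none for Mcpt8, Cpa3, Kit and Il4. Ms4a2 shared 3.96% of its words with other genes and Tpsb2 0.557% with its neighbour tryptase Tpsab1.

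The promoters of the granule and IgE receptor genes are shown because these genes define the cells described below, and because Mcpt8 and Mcpt4, in spite of their short distance, differed in opposite directions between RA_4d and control_4d. The bases upstream of the gene start were read from RefSeq windows of GRCm38.p6, 5′ to 3′ on the gene's strand, and capitals mark each GATAA or its reverse complement TTATC, the core letters bound by GATA factors such as Gata2.
Mcpt8, chr14:56085274-56085447, minus strand: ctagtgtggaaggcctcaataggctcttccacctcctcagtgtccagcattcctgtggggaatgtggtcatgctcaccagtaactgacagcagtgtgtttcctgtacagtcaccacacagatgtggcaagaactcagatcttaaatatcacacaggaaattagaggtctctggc
Mcpt4, chr14:56062314-56062560, minus strand: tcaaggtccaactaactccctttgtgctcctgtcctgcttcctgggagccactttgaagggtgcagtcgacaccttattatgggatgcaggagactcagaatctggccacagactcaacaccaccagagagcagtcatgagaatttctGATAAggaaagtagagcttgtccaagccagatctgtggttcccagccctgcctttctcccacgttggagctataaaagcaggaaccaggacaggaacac
Cma1, chr14:55944676-55944925, minus strand: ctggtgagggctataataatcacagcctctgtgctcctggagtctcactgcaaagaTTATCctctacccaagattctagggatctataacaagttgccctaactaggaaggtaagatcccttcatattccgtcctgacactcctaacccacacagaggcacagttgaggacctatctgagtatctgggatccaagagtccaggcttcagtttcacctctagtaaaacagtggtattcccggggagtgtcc
Cpa3, chr3:20242182-20242431, minus strand: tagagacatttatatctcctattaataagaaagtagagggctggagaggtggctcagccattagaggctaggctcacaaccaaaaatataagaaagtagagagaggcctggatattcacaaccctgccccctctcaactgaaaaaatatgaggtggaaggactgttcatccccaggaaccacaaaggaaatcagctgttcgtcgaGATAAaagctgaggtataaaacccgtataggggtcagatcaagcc
Ms4a2, chr19:11623720-11623969, minus strand: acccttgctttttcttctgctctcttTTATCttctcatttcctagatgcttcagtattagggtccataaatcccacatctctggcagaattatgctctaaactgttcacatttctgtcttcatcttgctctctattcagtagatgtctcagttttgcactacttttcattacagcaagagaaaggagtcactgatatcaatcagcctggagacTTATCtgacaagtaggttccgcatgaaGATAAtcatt
Windows were found for 7 of the 8 genes, all but Tpsb2. These 7 genes had 9 windows. The letters GATAA, on either strand, occurred within the 250 bases before the RefSeq start in 4 of the 9, each of a different gene. Over the genome they occurred in 22.6% of 32851 windows of the same length. Distances below are counted from the RefSeq start. The printed sequences stop at the gene start of the positions above, which leaves 174 of the 250 bases for Mcpt8 and 247 for Mcpt4. Cpa3 held them 45 bases before the start, Mcpt4 102 and Cma1 194, and Ms4a2 held 3 copies between 10 and 224 bases before it. A window with 2 or more copies was found for 4.28% of all starts. Mcpt8, Kit and Il4 held none in this window, part of which lay inside the gene for each of them. These matches are letters only, and binding was not measured.

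At 4 dpf, cells rich in these genes took up a larger share of the RA callus than of the control callus. Member-rich cells were 105 of 7202 in control_4d (1.46%, 1.19% to 1.76%) and 166 of 5637 in RA_4d (2.94%, 2.52% to 3.42%), which gave an RA to control ratio of 2.02 (1.57 to 2.60). Later, at 7 dpf, such cells made up 73 of 9581 in control_7d (0.762%, 0.598% to 0.957%) and 87 of 9706 in RA_7d (0.896%, 0.719% to 1.10%). The ratio at 7 dpf was 1.18 and its interval for counting error, 0.852 to 1.63, held 1, which is not a test of RA against control. The limit of 5 was crossed narrowly by many cells: 24, 31, 18 and 32 cells of control_4d, RA_4d, control_7d and RA_7d had a sum of exactly 5, and 60, 58, 36 and 30 had a sum of exactly 4.

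Most of the excess in RA_4d was in cells with more Mcpt8 than chymase and tryptase UMIs. A member-rich cell with more Mcpt8 UMIs than Mcpt4, Tpsb2 and Cma1 UMIs together was called Mcpt8-dominant. One with the reverse was called mast protease-dominant (Cpa3, shared by both cell types, was not used). The remainder had equal counts, mostly 0 of either. The name Mcpt8-dominant compares Mcpt8 with these chymases and tryptase only and does not mean high Mcpt8. In RA_4d the Mcpt8 counts of these cells ran from 1 to 413 UMIs, with a median of 4. Over all libraries 108 cells were Mcpt8-dominant, whereas Mcpt8 was highest or tied among the 8 genes in only 40 member-rich cells. Mcpt8-dominant cells numbered 15 in control_4d (0.208%, 0.117% to 0.343%) and 74 in RA_4d (1.31%, 1.03% to 1.65%). Their share was 6.30 times larger in RA_4d (3.59 to 11.8). At 7 dpf there were 7 in control_7d (0.0731%, 0.0294% to 0.150%) and 12 in RA_7d (0.124%, 0.0639% to 0.216%), and the ratio of 1.69 had an interval from 0.614 to 5.07. Mast protease-dominant cells were rare in every library, with 2, 2, 3 and 5 cells in the order control_4d, RA_4d, control_7d and RA_7d. For these cells the 4 dpf ratio was 1.28, with an interval from 0.0926 to 17.6. The 7 dpf ratio was 1.65, with an interval from 0.320 to 10.6. With so few cells these counting intervals are wide, and RA was not tested against control.

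**Figure D1:**
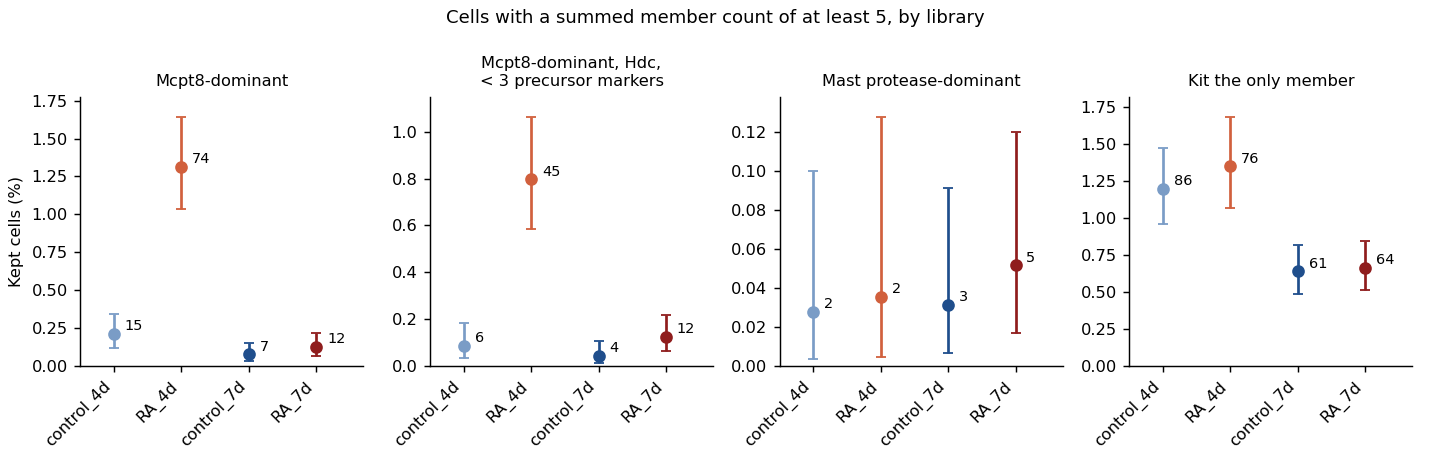
Share of kept cells in percent (y axis, a separate scale in each panel) that were Mcpt8-dominant, Mcpt8-dominant with a Hdc UMI and fewer than 3 precursor markers, mast protease-dominant, or held Kit as the only one of the 8 genes, in each library; points are shares with the number of cells beside them and bars are exact 95% binomial intervals, which cover counting error only. The Mcpt8-dominant share stands at 1.31% in RA_4d against 0.208% in control_4d, while the Kit-only shares of those libraries are 1.35% and 1.19%.

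Member-rich cells of neither kind numbered 88 in control_4d and 90 in RA_4d, a ratio of 1.31 (0.963 to 1.77), and among them those with an Il4 UMI numbered 1 and 11. Most of the cells of neither kind carried Kit and nothing else of the 8. These Kit-only cells numbered 86 (1.19%), 76 (1.35%), 61 (0.637%) and 64 (0.659%) in control_4d, RA_4d, control_7d and RA_7d. Their RA to control ratios were 1.13 (0.818 to 1.56) at 4 dpf and 1.04 (0.718 to 1.50) at 7 dpf. By markers, 195 of the 287 carried most markers of the endothelial list and 47 of the dendritic list. None of these lists was one of mast cells, and Kit-only cells lacked the mast proteases by definition. When a UMI of 2 or more of the 8 genes was required as well, 14, 88, 11 and 21 cells remained and the 4 dpf ratio was 8.03 (4.54 to 15.3). That requirement was added after the data were seen.

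The Mcpt8-dominant cells of RA_4d differed among themselves in the markers of immature cells. Of the 74, 29 carried 3 or more of 8 markers of myeloid precursors (Mpo, Elane, Prtn3, Ctsg, Ms4a3, Myb, Gfi1, Igll1), several of which encode the granule proteins that immature neutrophils make, and 45 carried fewer. A cell with little Mcpt8 reached the sum of 5 only with the help of another of the 8 genes, so the counts of these genes in the 2 subsets are given as a description. Kit had a UMI in 24 of the 29 and in 0 of the 45. Il4 ran the other way, with a UMI in 3 of the 29 and in 43 of the 45, where its median was 23 UMIs a cell and its highest value 232. Cpa3 was found in 9 of the 29 and 37 of the 45, and Ms4a2 in 12 of the 29 and 36 of the 45. Mcpt8 was low in most cells of both kinds, with medians of 2 and 5 UMIs, and the highest single value, 413, was in a precursor-marked cell. Outside the 8 genes, all 45 had a UMI of Hdc, the enzyme that makes histamine, and 42 of the 45 had Cd200r3, a surface receptor of basophils and mast cells, against 22 and 3 of the 29. The proliferation gene Mki67 had a UMI in 28 of the 29 and in 9 of the 45. Depth differed as much as identity: the precursor-marked cells had a median of 45311 UMIs and the others 5683, and its part in the numbers of cells with a UMI was not tested.

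Of the 45 cells, all had Hdc, 42 had Cd200r3 and 29 had the IgE receptor chain Fcer1a, genes listed as shared by mast cells and basophils. Il4 was found in 43, but it is part of the sum that selected the cells. The basophil protease Prss34 had a UMI in only 12 of the 45, with a median of 0. With these limits the 45 cells are called basophil-like here. Fewer than 3 precursor markers alone left 13 cells in control_4d against the 45 of RA_4d, a ratio of 4.42 (2.34 to 8.94). At 7 dpf it left 5 and 12 cells, a ratio of 2.37 (0.777 to 8.58). A Hdc UMI was then required as well, after the data were seen, which could remove none of the 45. Both rules together left 6 of the 15 Mcpt8-dominant cells of control_4d, 4 of 7 in control_7d and 12 of 12 in RA_7d. Basophil-like cells by both rules were thus 0.0833% of control_4d and 0.798% of RA_4d, a ratio of 9.58 (4.08 to 27.5). At 7 dpf they were 0.0417% and 0.124%, and the ratio of 2.96 had an interval of 0.898 to 12.6. Precursor-marked Mcpt8-dominant cells numbered 2, 29, 2 and 0 in the order of libraries above, a ratio of 18.5 (4.69 to 160) at 4 dpf. They were not all alike. Of the 29, only 3 had Cd200r3, Fcer1a and Il4, with 413, 405 and 206 Mcpt8 UMIs. These 3 had 0, 15 and 13 Mpo UMIs, while the median of the 29 was 174. The 2 cells of control_7d also had Cd200r3 and Fcer1a, with 356 and 208 Mcpt8 UMIs. They are left out of the basophil-like count at 7 dpf. In control_4d, 6 of the 15 Mcpt8-dominant cells had the markers of mesenchymal or muscle cells, against 1 in RA_4d, 1 in control_7d and 0 in RA_7d. Very deep cells, over 50000 UMIs, were 7 of the 15 in control_4d and 12 of the 74 in RA_4d, and the 4 dpf ratio of Mcpt8-dominant cells without them was 9.86. Markers of other myeloid cells moved with these counts: cells of the neutrophil class were 43 in control_4d and 229 in RA_4d (ratio 6.80, 4.90 to 9.66), and cells of the myeloid precursor class were 13 and 82 (8.06, 4.46 to 15.8). At 7 dpf the neutrophil class numbered 109 and 34 (0.308, 0.203 to 0.456) and the precursor class 6 and 5. Of 18910 genes compared over all kept cells, 0.698% were 2-fold or more higher in RA_4d. Among them were 7 of 8 neutrophil markers and 7 of 7 precursor markers with enough counts (medians of 2.51 and 2.68 on the log2 scale). Their part in the Mcpt8-dominant share was not tested.

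**Figure D2:**
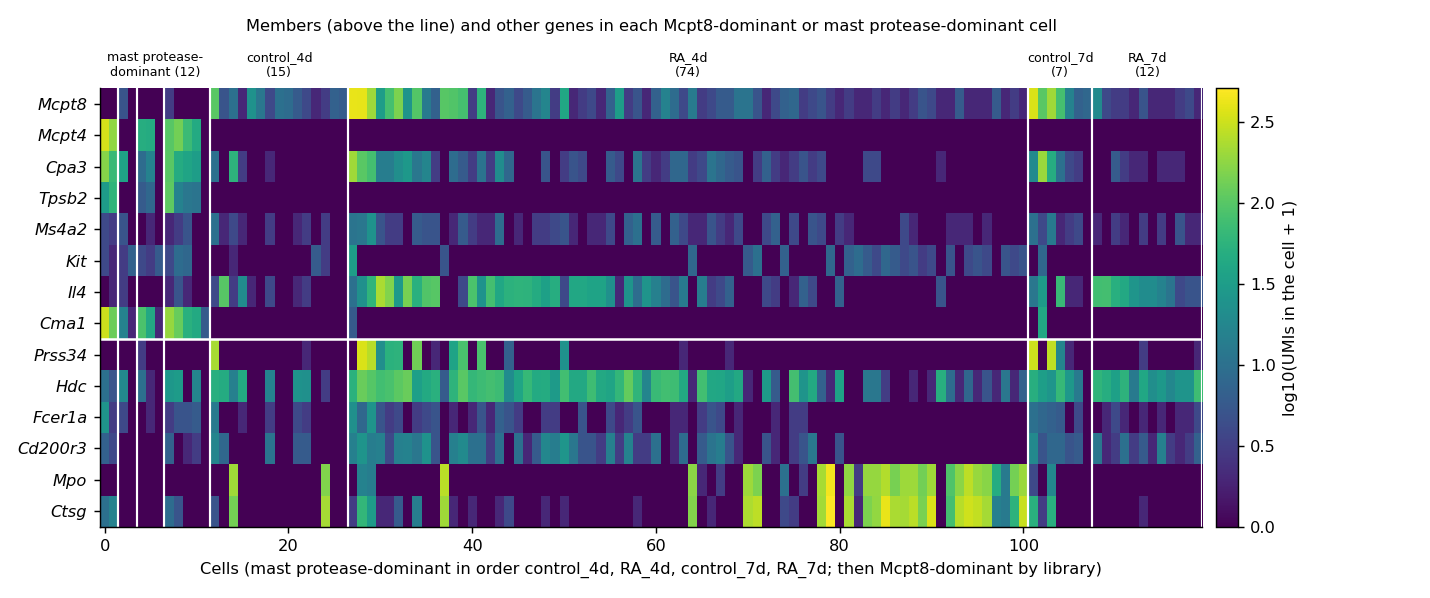
Each column is 1 cell, first the 12 mast protease-dominant cells and then the Mcpt8-dominant cells by library, and each row is a gene, the 8 genes above the white line and 6 others below it; colour gives log10(UMIs in the cell + 1). Of the 12 mast protease-dominant columns 8 hold Mcpt4 and 4 hold neither Mcpt4 nor Tpsb2, and Cma1 is as low as 1 UMI. Among the 74 Mcpt8-dominant cells of RA_4d the columns with Il4 and those with Kit and Mpo are mostly different ones.

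Il4 and Mcpt8 counts varied widely from cell to cell among the basophil-like cells. In the 6 cells of control_4d the lowest, median and highest Il4 counts were 1, 3 and 101 UMIs, in the 45 of RA_4d 0, 23 and 232, in the 4 of control_7d 1, 15 and 67, and in the 12 of RA_7d 3, 20 and 79. The ranges of all 4 libraries overlapped. Summed over these cells and set against their total UMIs, Il4 stood at 4097, 5726, 2670 and 4817 CPM (counts-per-million of all UMIs of those cells). One cell held 101 of the 130 Il4 UMIs of control_4d, and without the top cell of each library the levels were 1098, 5054, 1026 and 3894 CPM. Because Il4 is part of the sum that selected these cells, its level in them is in part fixed by the selection. Mcpt8 in the same cells stood at 3750 CPM in control_4d, 2912 in RA_4d, 5613 in control_7d and 552 in RA_7d. The value of control_4d rested on 1 cell with 103 of the 119 UMIs, and without the top cell of each library the levels were 712, 2472, 7554 and 315 CPM. The lowest, median and highest counts were 1, 3.5 and 103 in control_4d, 1, 5 and 147 in RA_4d, 6, 48 and 104 in control_7d, and 1, 2 and 19 in RA_7d, so that all ranges overlapped. The control_7d cell with 104 Mcpt8 UMIs had a mixed profile, with 41 Cma1, 202 Cpa3, 7 Kit and 38 Gzmb UMIs. The low Mcpt8 counts of the RA_7d cells stood beside Hdc counts of 12 to 73 and Cd200r3 in all 12. Prss34, another basophil protease, gave 3 UMIs in the 12 cells of RA_7d and 17 in the 4 cells of control_7d, of which 16 were in 1 cell. A further 600 Prss34 UMIs of control_7d were in the 2 precursor-marked Mcpt8-dominant cells, which are not counted as basophil-like.

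The mast protease-dominant cells are few enough to be described singly. In control_4d both were strong mast cells, with 338 and 180 Mcpt4, 317 and 125 Cma1, 163 and 68 Cpa3, and 30 and 58 Tpsb2 UMIs. In RA_4d neither cell held Mcpt4 or Tpsb2. One of them had 15 Cma1 and 36 Cpa3 UMIs beside 4 Mcpt8, 41 Gzmb and 18 Hdc UMIs, and the other had 6 Kit UMIs and 1 Cma1 UMI. In control_7d 2 strong cells were found again, with 48 and 46 Mcpt4 and 86 and 42 Cma1 UMIs, and the third cell had 1 Cma1 and 5 Kit UMIs with endothelial markers. In RA_7d 4 cells were strong, with 100, 136, 70 and 44 Mcpt4 and 191, 119, 51 and 43 Cma1 UMIs, and the fifth held 5 Cma1 UMIs alone among the mast proteases. Mast protease-dominant cells with Mcpt4 thus numbered 2, 0, 2 and 4 in the order of libraries, and 0 of 5637 kept cells in RA_4d allows a share of up to 0.0532% by a limit of 3 cells and 0.0654% by the exact interval. The share of such cells in control_4d, 0.0278% with an interval of 0.00336% to 0.10%, overlapped both limits.

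Over all kept cells, the proteases of basophils and mast cells differed in opposite directions at 4 dpf. Levels are given as CPM over all UMIs of the kept cells of a library, and differences as log2(CPM + 1) of RA minus control, a scale that understates the difference of low genes. The intervals of these levels treat UMIs as independent, whereas 1 cell could hold a large part of a gene's UMIs. They are therefore too narrow, and a gap between intervals is not a test of RA against control. Of the 8 genes, 4 were 2-fold or more higher in RA_4d than in control_4d (Mcpt8, Cpa3, Ms4a2, Il4) and 2 were 2-fold or more lower (Mcpt4, Cma1). Of 18910 genes with enough counts, 0.698% were 2-fold higher and 0.291% 2-fold lower, and the median gene differed by 0.019. At 7 dpf 0 of the 8 were 2-fold higher and 1, Mcpt8, was 2-fold lower, against 1.44% and 0.558% of 19538 genes. Because the 8 genes were selected on these libraries, nothing follows from these counts about how unusual they are.

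**Figure D3:**
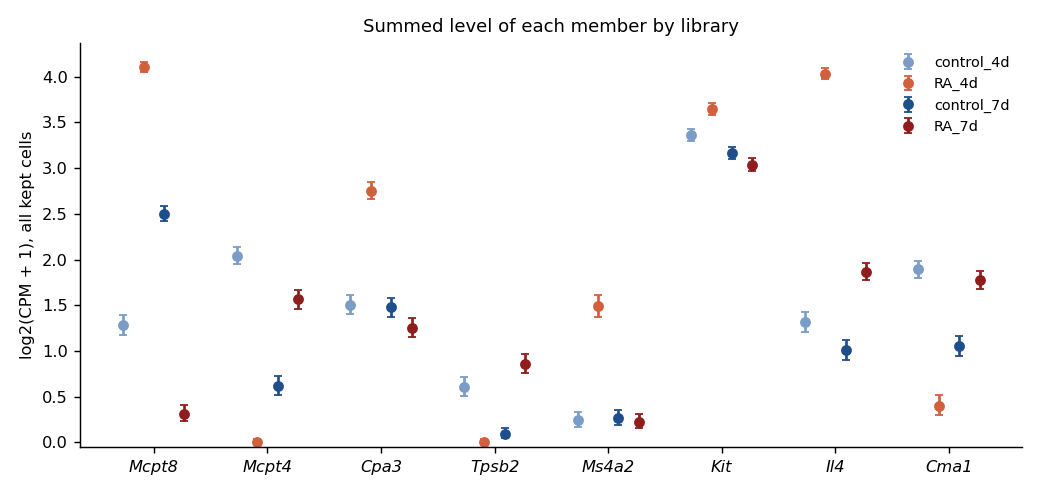
Level of each of the 8 genes over all kept cells as log2(CPM + 1) (y axis) in the 4 libraries; points are levels and bars are exact 95% Poisson intervals, which cover counting error only. Mcpt8 and Il4 are highest in RA_4d (16.2 and 15.4 CPM before the log), Mcpt4 and Tpsb2 are at 0 there, and Kit stays between 7.21 and 11.5 CPM.

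Mcpt8, the basophil protease, stood at 1.44 CPM (1.26 to 1.63) in control_4d, 16.2 (15.5 to 16.9) in RA_4d, 4.66 (4.35 to 4.99) in control_7d and 0.242 (0.176 to 0.325) in RA_7d. The difference was 2.82 at 4 dpf and -2.19 at 7 dpf. No pair of libraries had overlapping intervals, which were too narrow where 1 cell held many UMIs. The 7 dpf direction of Mcpt8 rested on few cells, since 1 cell gave 43.3% of the 822 UMIs of control_7d. Without the top cell of each library the 7 dpf difference was -1.68. The number of cells with a UMI was 47, 123, 39 and 15. Cpa3, the shared carboxypeptidase, stood at 1.84, 5.75, 1.78 and 1.38 CPM in the same order, with differences of 1.25 and -0.22. The intervals of both controls overlapped (1.64 to 2.06 and 1.59 to 1.99), RA_4d lay above them and RA_7d (1.22 to 1.57) just below. The cells that held Cpa3 differed between libraries. Mcpt8-dominant cells held 22.1%, 88.2%, 89.8% and 4.78% of its UMIs, and mast protease-dominant cells held 75.0%, 4.82%, 7.32% and 86.1%. These shares rest on few cells. Of the Cpa3 UMIs in Mcpt8-dominant cells, 1 cell held 56 of 68 in control_4d and 1 held 202 of 282 in control_7d. The mast protease-dominant shares of control_4d and RA_7d came from 2 and 4 cells.

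The mast cell proteases were lower in RA_4d and not in RA_7d. Mcpt4 gave 523, 0, 94 and 355 UMIs, or 3.12, 0, 0.533 and 1.96 CPM, and at 4 dpf it was at least 135-fold lower in RA_4d against the level that 3 UMIs in the library would give. These UMIs came from 7, 0, 2 and 9 cells, and 1 cell gave 64.6% of those in control_4d. Without the top cell of each library the log2 difference at 4 dpf was -1.07 in place of -2.04. Tpsb2 gave 88, 0, 12 and 148 UMIs from 2, 0, 2 and 6 cells, and was at least 22.7-fold lower in RA_4d on the same floor. Both bounds treat UMIs as independent, whereas the same 2 cells of control_4d held 518 of the 523 Mcpt4 UMIs and all 88 Tpsb2 UMIs. They thus amount to 2 such cells in control_4d against 0 in RA_4d, shares whose intervals overlapped. Cma1 gave 454, 41, 189 and 439 UMIs, with differences of -1.50 at 4 dpf and 0.72 at 7 dpf, and the intervals of its levels in control_4d (2.47 to 2.97 CPM) and RA_7d (2.20 to 2.66 CPM) overlapped. Without the top cell the 4 dpf difference of Cma1 was -0.60, under 2-fold. Of the 41 Cma1 UMIs of RA_4d, 39.0% were in mast protease-dominant cells, against 97.4% in control_4d.

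Among the receptors, Ms4a2 followed Mcpt8 at 4 dpf and Kit did not. Ms4a2 stood at 0.185 CPM in control_4d (0.126 to 0.263), 1.81 in RA_4d (1.58 to 2.06), 0.204 in control_7d (0.143 to 0.283) and 0.171 in RA_7d (0.116 to 0.242). Only RA_4d was outside the intervals of the others, and the differences were 1.25 and -0.041. The UMIs of RA_4d came from 90 cells against 15, 11 and 17 in the other libraries. Kit was the most widely detected of the 8, with a UMI in 569, 510, 577 and 601 cells, and its level of 9.26, 11.5, 7.99 and 7.21 CPM gave differences of 0.29 and -0.13. The intervals of control_7d (7.58 to 8.42) and RA_7d (6.83 to 7.61) overlapped. Member-rich cells held 40.8%, 50.3%, 37.8% and 32.5% of its UMIs, a smaller share than for any other of the 8 genes in the same library.

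Il4, the cytokine, was higher in RA at both times. It stood at 1.49 CPM in control_4d (1.31 to 1.68), 15.4 in RA_4d (14.7 to 16.1), 1.01 in control_7d (0.867 to 1.17) and 2.64 in RA_7d (2.41 to 2.89), with differences of 2.72 and 0.86. The intervals, too narrow as said above, did not overlap, and the order ran RA_4d, RA_7d, control_4d, control_7d. The Il4 UMIs were spread over 44, 105, 54 and 79 cells, and the top cell gave 40.6% of them in control_4d but 11.6% in RA_4d. Mcpt8-dominant cells held 53.4%, 87.1%, 61.2% and 72.7% of the Il4 UMIs. At 7 dpf the difference for Il4 was -0.032 when only cells inside the limits of the study (4000 to 50000 UMIs, 2000 to 7000 genes, at most 8% mitochondrial UMIs) were kept. Of the Mcpt8-dominant cells, 1 of the 12 in RA_7d was inside these limits, against 4 of the 7 in control_7d. At 4 dpf the same limits kept 3 of 15 and 32 of 74.

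Outside member-rich cells, each gene had its own background. Cells were assigned to 15 coarse classes by which list of 8 markers had the most members detected, with 3 or more required. Kit was found at 89.5 CPM in the dendritic class, with a UMI in 60.5% of 438 cells, and at 28.3 CPM in the endothelial class, with a UMI in 27.6% of 3562 cells. Both levels held in every library, from 78.6 to 95.5 CPM and from 23.9 to 38.7 CPM. Mesenchymal class cells stood at 0.354 CPM. Mcpt8 outside member-rich cells was highest per UMI in the myeloid precursor class, at 11.9 CPM, from 42 UMIs in 29 of 106 cells, with 36 of the UMIs in RA_4d. The far larger mesenchymal class held more of its UMIs, 64 in 41 of 11764 cells (0.189 CPM), and the muscle class held 24 (1.30 CPM). Ms4a2 was highest in the myeloid precursor class and in the neutrophil class, at 4.53 and 1.66 CPM. Cma1 was found in the T and NK class at 7.65 CPM, from 53 UMIs in 46 of 993 cells, with a range of 4.50 to 10.0 CPM over the libraries. Mcpt4, Tpsb2 and Il4 were near 0 in all other classes, the highest of these being Il4 at 1.83 CPM in the Schwann class.

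**Figure D4:**
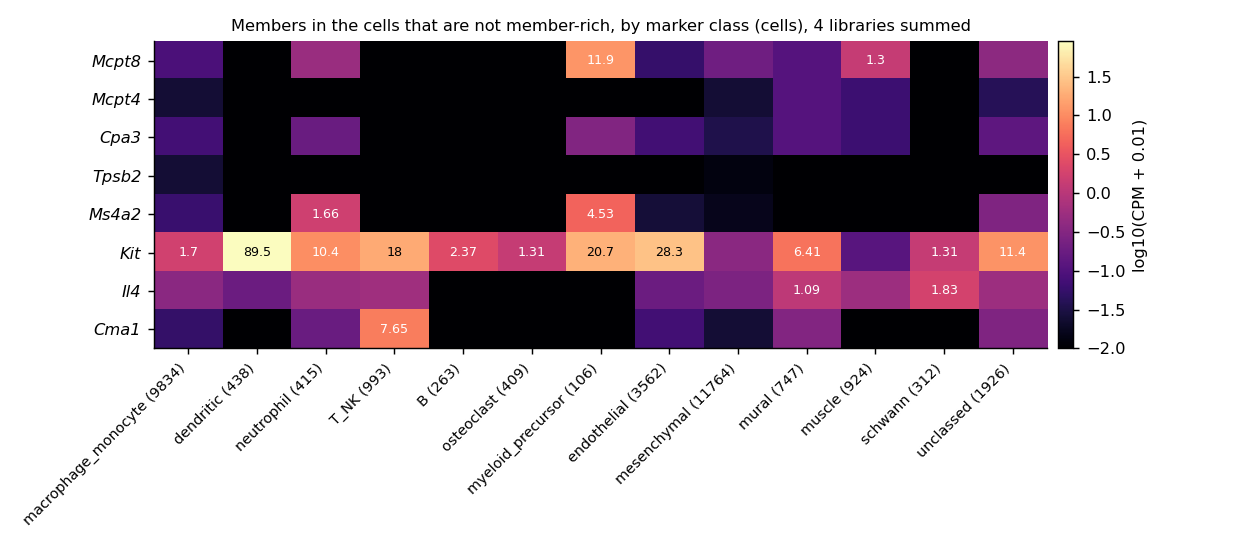
Level of each of the 8 genes (rows) in cells that were not member-rich, by coarse class (columns, with the number of cells; classes of 50 or more cells), as log10(CPM + 0.01) in colour, with the CPM printed where it is above 1. Kit is high in the dendritic and endothelial columns at 89.5 and 28.3 CPM, Mcpt8 in the myeloid precursor column at 11.9 and Cma1 in the T and NK column at 7.65.

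A few UMIs of Mcpt8 and Cma1 were found in cells of other classes, where free RNA and mixed droplets were not tested. Of all mesenchymal and muscle class cells, member-rich ones included, 65 had a Mcpt8 UMI (31 in control_4d, 8 in RA_4d, 25 in control_7d, 1 in RA_7d). Of these 65, 46.2% also had a UMI of at least 1 of 6 granzymes (Gzmc, Gzmd, Gzme, Gzmf, Gzmg, Gzmn), whose genes lie near Mcpt8 on chromosome 14, against 6.92% of the 12637 cells of these classes without Mcpt8. A UMI of any other of the 8 genes apart from Kit was found in 4.62% of the 65 and in 0.91% of the others. They were deep cells, with a median of 56302 UMIs against 25263, and 63.1% had a Mki67 UMI against 18.2%, and the part of depth was not tested. Of all T and NK class cells, member-rich ones included, 47 had a Cma1 UMI. Gzmb was found in 61.7% of these and in 27.2% of the 951 without Cma1, and the T cell receptor chain Cd3e in 0 of the 47 and in 38.0% of the 951, while the median depths were 5085 and 6089 UMIs. A Cma1 UMI was found in 0% to 0.108% of macrophage class cells by library, at median depths of 10633 to 13929.5 UMIs. In the T and NK class the share was 2.27% to 7.51%, at 5552.5 to 7515 UMIs. Whether the macrophage class measures free RNA was not tested. For Mcpt8 in control_4d the shares outside member-rich cells were 0% of 3250 macrophages, 0.729% of the mesenchymal class (median 37868 UMIs) and 5.35% of the muscle class (27003 UMIs), classes that were deeper than the macrophages. Macrophages of other libraries did hold Mcpt8. Over all libraries 11 of 9834 macrophage class cells (0.112%) had a UMI of it. By library its level was 0 to 0.220 CPM in macrophages, 0 to 0.353 CPM in the mesenchymal class and 0 to 2.70 CPM in the muscle class. Both groupings were made after these values were first seen.

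Genes outside the 8 described the cells further. The ratio of CPM in the summed cells of a set to CPM in all kept cells that were not member-rich was taken over all genes, as log2 with 1 CPM added, and these cells were chosen with the 8 genes, so the ratios describe and do not test. Among mast protease-dominant cells the leading non-members were Fcer1a, the IgE-binding chain (8.50, in 8 of 12 cells), Mrgprb1 (8.49, in 7 of 12) and Mrgprx2, from the family of receptors through which mast cells respond to cationic peptides, followed by Gzmb, Cyp11a1, Hdc, Rab27b, Lsamp, Gata2 and Samsn1. This summed profile is not one of mast cells alone. The 4 cells without Mcpt4 or Tpsb2 held 9909, 16867, 32768 and 18857 of its 122869 UMIs, and 1 of them held 41 Gzmb UMIs. Mrgprb1 had no UMI in any of the 108 Mcpt8-dominant cells. Their leading genes were Cyp11a1 (7.40, in 73 of 108), Hdc (7.35, in 93), Cd200r3 (7.21, in 68), Ctsg, Mpo, Acod1, Aqp9, Ccl4, Fcer1a (6.13, in 50) and Ms4a3. Cyp11a1 starts steroid synthesis from cholesterol, and Ctsg, Mpo and Ms4a3 belong to the precursor markers. The summed Mcpt8-dominant profile is not one of basophil-like cells alone either. Of the 108 cells, 33 carried 3 or more precursor markers and had a median of 45228 UMIs. The 67 basophil-like cells had a median of 5225 UMIs and so weigh less in the sum. Prss34 had the higher ratio of 9.49 but was present in only 22 of the 108, under the share of 25% required for this ranking.

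Lists of related genes gave counts for each set. Both sums are mixed, as described above, so a gene that is high in one need not be high in basophil-like cells or in mast cells. Of 8 basophil genes other than the 8, all 8 were 2-fold or more higher in Mcpt8-dominant cells, with a median of 4.79, among them Prss34, Il13 (5.84), Ccl4 (6.16) and Il6 (3.98), while 7.89% of 20774 genes were and the median gene was at -0.18. In mast protease-dominant cells 6 of 7 of the same genes were also 2-fold higher, with a lower median of 1.88. That sum includes the 4 cells without Mcpt4 or Tpsb2, so it does not show which of these genes mast cells share. Some marker lists of other cell types were high as well. In Mcpt8-dominant cells 7 of 8 myeloid precursor markers (median 6.04) and 6 of 7 eosinophil markers (3.81) were 2-fold higher. In mast protease-dominant cells 5 of 8 T and NK markers (2.48) and 5 of 8 endothelial markers (1.13) were. Few cells carried the last 3 lists. Eosinophil markers summed to 2150 CPM in control_4d against 41.6, 74.3 and 96.6 in RA_4d, control_7d and RA_7d. Only 1 cell of control_4d and 1 of RA_4d held 3 or more of them. Endothelial markers reached 3 in 1 mast protease-dominant cell, of control_7d, and T and NK markers in 1 of RA_4d and 1 of RA_7d. Of 8 macrophage markers 0 were higher in either set. Of all 20749 genes compared in mast protease-dominant cells, 9.97% were 2-fold higher and the median gene was at -0.37. There, 2 of 3 mast cell genes with enough counts were higher, Slc18a2, which loads histamine into granules (5.39), and Tph1, the serotonin synthesis enzyme (4.46). Of 8 genes shared by both cell types, 7 were higher in mast protease-dominant and 5 in Mcpt8-dominant cells. For granule machinery the counts were 7 and 6 of 10, with the proteoglycan core Srgn at 2.94 and 3.44, and for signalling from the IgE receptor 7 and 5 of 14, with the adaptor Lat2 at 2.95 and 1.35. The docking protein Rab27b parted the sets, at 5.76 and 1.33. Among 8 lipid mediator enzymes 2 and 3 were higher, among 7 mediator receptors 1 and 1, and among 7 type 2 cytokine and receptor genes 2 and 1. None of 6 IgG and anaphylatoxin receptors was 2-fold higher in either set. Of 6 growth factor and alarmin ligands compared, only Csf2 was higher, at 2.62 and 1.13, from a UMI in 1 and 2 cells.

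**Figure D5:**
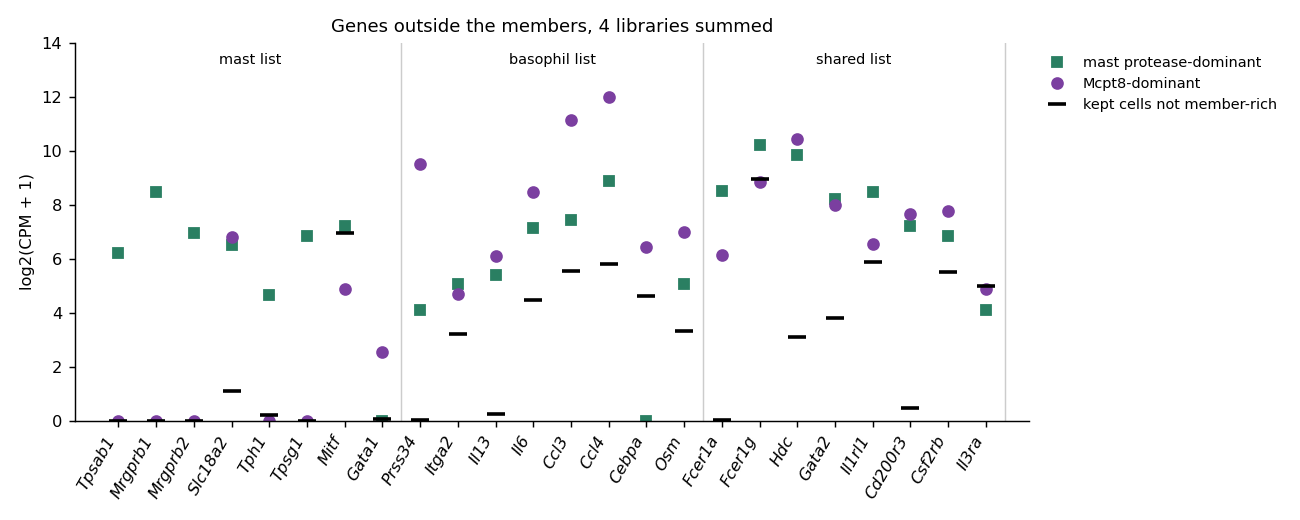
Level as log2(CPM + 1) (y axis) of 24 genes outside the 8, in 3 lists, in the summed mast protease-dominant cells (squares), Mcpt8-dominant cells (circles) and kept cells that were not member-rich (dashes). Hdc lies above the dash in both sets (by 6.75 and 7.35), Mrgprb1 in the mast protease-dominant set (by 8.49) and Prss34 most in the Mcpt8-dominant set (by 9.49).

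Over all kept cells some of these listed genes differed 2-fold or more between control and RA. Of all 18910 genes compared at 4 dpf, 0.698% were 2-fold higher in RA. At 4 dpf the 2-fold higher ones in RA were Hdc (2.47, from 1115 to 5390 UMIs), Ctsg (2.56), Prss34 (2.03, from 227 to 1117 UMIs), Gzmb (1.74), Cd200r3 (1.67), Ccl4 (1.02) and Slc18a2 (1.00). Il13, the cytokine neighbour of Il4, went from 45 to 158 UMIs, a difference of 0.80. Ctsg and Hdc are also genes of neutrophils and their precursors, which were more numerous in RA_4d. None of 14 IgE receptor signalling genes, 8 lipid mediator enzymes, 7 type 2 cytokine and receptor genes, 7 mediator receptors, 6 ligands or 6 IgG and anaphylatoxin receptors was 2-fold higher at 4 dpf. With the share of 0.698% over all genes, nothing follows from these empty lists. Kitl, which encodes the Kit ligand, gave 18083, 14638, 15059 and 22674 UMIs in the 4 libraries, and differences of 0.062 and 0.54. Of 8 other mast cell genes, 6 were too low for comparison at 4 dpf. Of these, 4 were at 0 in RA_4d, as Mcpt4 was: Tpsab1 gave 11, 0, 2 and 1 UMIs, Mrgprb1 14, 0, 7 and 23, Mrgprb2 5, 0, 3 and 8, and Tpsg1 9, 0, 1 and 6. The other two were present there, Tph1 with 19 and 29 UMIs and the transcription factor Gata1 with 9 and 28 in control_4d and RA_4d. At 7 dpf Ctsg (1.26) and Il6 (1.15) were 2-fold higher in RA_7d, as were 1.44% of 19538 genes. Prss34 was lower, at 626 against 5 UMIs (-2.15), in the direction of Mcpt8. The same 2 precursor-marked cells of control_7d held 600 of these 626 UMIs and 564 of the 822 Mcpt8 UMIs. The 2 directions are therefore not separate observations.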

How the data were processed

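Single-cell libraries were made from pooled callus with the Chromium Single Cell 3′ v3.1 kit. The authors produced the deposited gene-by-cell UMI counts with Cell Ranger 7.0.1 on mm10. These raw count matrices, with no normalization, were the only values used. Libraries were grouped by their labels. The 8 genes and all lists were chosen with earlier results of these data known.

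Cells with at least 1000 UMIs and 500 genes were kept. Cells were classed by 15 lists of 8 markers, and no clustering and no doublet caller were run; mixed cells were judged by marker counts alone. Levels were CPM over summed cells, compared as log2(CPM + 1) where both libraries together held 50 UMIs or more, and a fold of 2 was the limit. No test was possible with 1 library per group. Non-member genes were named by the 10 highest ratios among genes found in 25% of a set's cells with 20 or more UMIs in the set, and as list members. Of 40 symbols that occurred more than once, none was among the 8. Other settings tried numbered 16, and 5 more, with the split by precursor markers, were added after the data were seen. Calculations used Python 3.11.15, NumPy 2.4.6, pandas 2.3.3 and SciPy 1.17.1, and the gene comparison was tested on simulated data. Positions and transcripts came from GENCODE for GRCm38.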

Additional observations from a re-analysis of the deposited data

Results flagged for a closer look

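Of the 8 genes, 7 had opposite directions at 4 and 7 dpf, and each difference between the times was not tested, since each direction rests on 1 library per group. As log2(CPM + 1) of RA minus control, Mcpt8 stood at 2.82 at 4 dpf and -2.19 at 7 dpf, Cpa3 at 1.25 and -0.22, Ms4a2 at 1.25 and -0.041, and Kit at 0.29 and -0.13. The mast cell proteases had the reverse order, with Mcpt4 at -2.04 and 0.95, Tpsb2 at -0.61 and 0.77, and Cma1 at -1.50 and 0.72. The 7 dpf values of Kit, Ms4a2 and Cpa3 are near 0, so that their sign carries little.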

How the results depend on the processing

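The 4 dpf excess of member-rich cells (log2 ratio of shares 1.01) kept its direction in every alternative run, and the cause of its changes in size was not tested. It was 0.61 with a sum of 3 or more, 2.00 with 10, 2.85 with 20, 3.06 with cells thinned to 4000 UMIs, 2.38 without Kit and Il4, 2.76 without cells holding 3 markers of another class and 3.01 with 2 genes detected. At 7 dpf (0.23) it was 0.85 over haematopoietic cells only, 1.57 without marked cells and 0.91 with 2 genes detected, and turned to -0.042 with a sum of 3 and -0.019 with 10. For Mcpt8-dominant cells the limits of the study gave 3.83 at 4 dpf (2.66 as reported) and -2.10 at 7 dpf (0.76 as reported), from 4 and 1 cells; at 7 dpf it was also -0.50 without Kit and Il4 and -0.019 with a sum of 3. The counts of genes past 2-fold moved with the pseudocount: at 4 dpf 4 higher became 2 and 2 lower became 0 with 10 CPM added, and 2 lower became 1 without the top cells. At 7 dpf 0 higher became 4 with 0.1 CPM added and 2 within the limits of the study, and 1 lower became 0 with 10 CPM. The 8 genes' own differences moved in 40 of 110 recalculations, and none past 2-fold turned direction. The TMM factors were 0.041 at 4 dpf and 0.014 at 7 dpf on the log2 scale, and each gene shifted by at most about that. No library could be left out, and no paired analysis was possible because each group has 1 library.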
